A study of Rattus norvegicus with 18 samples.

Results

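The natriuretic peptide system was followed through its 8 genes in neonatal rat ventricular cardiomyocytes: the peptide genes NPPA, NPPB and NPPC, the receptor genes NPR1, NPR2 and NPR3, and the processing enzyme genes CORIN and FURIN. They were found by name among the 28909 genes of the deposited table, and all 8 were measured. Plots give their names in RefSeq spelling (Nppa and so on). The cells came from the ventricles of wild-type SD rats aged 1 day. Faster-attaching cells were removed by a 90 min plating step, and the remaining cells were moved to collagen-coated plates and then to a medium with 0.25% serum. They received blebbistatin, an inhibitor that stops the ATP-driven stroke of myosin II, or DMSO alone for 0.5 h. The treatment protocol gives 25 µM blebbistatin, while the design text also gives 0.25. RNA was sequenced from 3 libraries per group, the comparison being the effect of a short myosin II block on transcript levels. Nothing in the labels says that the 3 libraries of each group are separate isolations of cells, and p-values therefore cover only the spread between libraries, which may be technical.

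Natriuretic peptides are hormones that the heart releases when its wall is stretched or overloaded. Atrial natriuretic peptide (from NPPA) and brain natriuretic peptide (from NPPB) act on the receptor guanylyl cyclase encoded by NPR1, and C-type natriuretic peptide (from NPPC) on that encoded by NPR2, and both receptors make cGMP inside the target cell. NPR3 encodes a receptor that removes the peptides from the circulation, and the proteases corin and furin cut the precursors. NPPA and NPPB are expressed in the ventricle of the fetal and newborn heart and again under hypertrophic stress, and NPPB is known for a fast transcript response to mechanical load.

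Values are CPM, read counts scaled so that each library sums to 1e+06. The step between the smallest values, taken as 1 read, corresponds to 59.6 to 63.3 M reads (M, 1e+06) per library. Cardiomyocyte markers were present in all libraries, with Tnnt2 at 977.4 to 1798 CPM. Fibroblast markers were present as well, with Col1a1 at 18795 to 24452 CPM, so the libraries hold RNA of more than 1 cell type. In such bulk samples fewer cells of a type and less RNA per cell cannot be told apart. DMSO replicate 1 is reported apart below because NPPA was far lower there. Of the 15204 genes tested, 489 (3.22%) lay at least 1 log2 unit below all other libraries there, and 161 (1.06%) at least 1 log2 unit above them. It was the lowest of the 6 libraries for 34.4% and the highest for 33.7% of genes.

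No member passed the test after blebbistatin. With limma on log2(CPM + 0.1), 0 of 8 members had an adjusted p under 0.05 and 0 of 8 an unadjusted p under 0.05, against 0.0197% and 1.52% of all genes tested. Without DMSO replicate 1, 0 of 8 passed the adjusted threshold, against 0.0395% of all genes. The members' log2 fold changes had a median of -0.042 (3 positive, 5 negative), against 0.0038 over all genes, of which 50.6% were positive. Without DMSO replicate 1, 4 were positive and 4 negative, against 49.6% positive over all genes. The members did not share a pattern over the libraries. Apart from NPPC, which had few reads, NPPA and NPPB varied most between libraries and NPR2 least. NPR3 and CORIN were the only members whose groups did not overlap (2 of 8, both higher), against 6.19% of all genes in either direction and 3.23% higher.

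**Figure D1:**
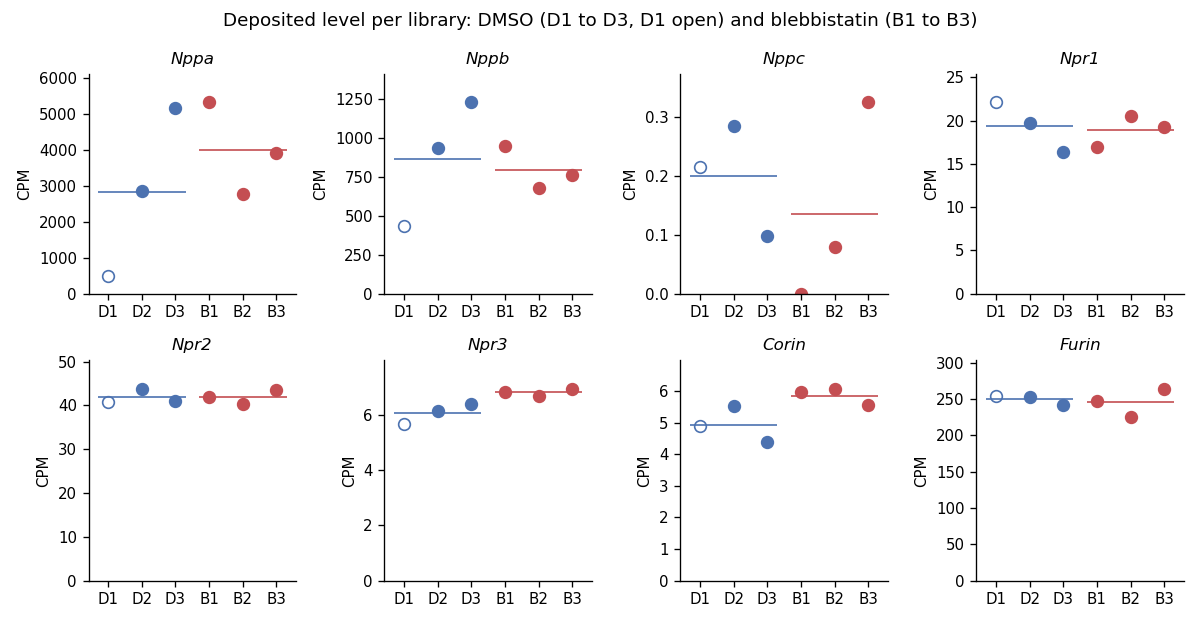
Deposited level (CPM, linear axis from 0) of each of the 8 genes in every library, with DMSO libraries in blue (replicate 1 as an open circle) and blebbistatin libraries in red; lines are group means. NPPA spans 495 to 5326 CPM with DMSO replicate 1 far below the rest, while NPR2 is nearly level.

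NPPA, the gene of atrial natriuretic peptide, was at 495 CPM in DMSO replicate 1, 2859 CPM in DMSO replicate 2 and 5168 CPM in DMSO replicate 3. In blebbistatin replicates 1, 2 and 3 it was at 5326, 2785 and 3908 CPM. DMSO replicate 1 was 7.9-fold below the median of the other 5 libraries, and the treated libraries lay close to the span of the other 2 controls, with blebbistatin replicate 1 just above it and blebbistatin replicate 2 just below. After scaling between libraries, the DMSO mean was 2807 ± 2267 CPM and the blebbistatin mean 3941 ± 1201 CPM (SD, n = 3 per group). The log2 fold change was 0.96 ± 0.81 (SE; limma adjusted p = 0.991), with a 95% interval from -1.01 to 2.93. Without DMSO replicate 1 it was 0.014 ± 0.36, so the value of the full comparison rests on that library. The interval of that second fit still spans a 0.539-fold to a 1.89-fold level.

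NPPB, the gene of brain natriuretic peptide, was at 432.7, 936 and 1231 CPM in DMSO replicates 1, 2 and 3. With blebbistatin it was at 950.2, 678.6 and 762.2 CPM. DMSO replicate 1 was again the lowest library, but here 2 of the 3 treated libraries also lay below both other controls. The means were 866 ± 374 and 785 ± 126 CPM, which gave -0.046 ± 0.33 on the log2 scale (limma, adjusted p = 0.992) and a 95% interval of -0.83 to 0.74. Without DMSO replicate 1 the log2 fold change was -0.44 ± 0.17, a level 0.737-fold that of the 2 remaining controls. That library was set apart for its low NPPA value and was also the lowest for NPPB, so leaving it out lowers this value by construction. The unadjusted p of NPPB was then 0.0309, and its limma adjusted p was 0.9996. In that fit 1.58% of all genes had an unadjusted p under 0.05. Because of how the library was chosen, this p is no support for a change. Blebbistatin replicate 1 and DMSO replicate 2 then still overlapped, at 925 and 924 CPM after scaling, in a comparison where 6.1% of all genes had every treated library below both controls. With any other single library left out, the NPPB log2 fold change ran from -0.17 (without blebbistatin replicate 1) to 0.25 (without DMSO replicate 3).

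The 2 genes differed in how far they followed the libraries. The ratio of NPPA to NPPB reads, not corrected for gene length and so read only between libraries, was 1.14 in DMSO replicate 1, 3.05 in DMSO replicate 2 and 4.2 in DMSO replicate 3. It was 5.61, 4.1 and 5.13 in blebbistatin replicates 1, 2 and 3. The ratio was lowest in DMSO replicate 1, and the groups overlapped only at DMSO replicate 3 and blebbistatin replicate 2.

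NPPA and NPPB lie next to each other on rat chromosome 5, and the bases before their start sites are shown because these 2 members share the low value in DMSO replicate 1. They are taken from RefSeq (assembly GRCr8, plus strand). NPPA is given at chr5:163711934-163712183, the 250 bases before its start, and NPPB at chr5:163699758-163699954, positions -250 to -54 of its start, which end where an upstream transcript start is annotated. Capitals mark matches to the motifs listed after the sequences.
NPPA: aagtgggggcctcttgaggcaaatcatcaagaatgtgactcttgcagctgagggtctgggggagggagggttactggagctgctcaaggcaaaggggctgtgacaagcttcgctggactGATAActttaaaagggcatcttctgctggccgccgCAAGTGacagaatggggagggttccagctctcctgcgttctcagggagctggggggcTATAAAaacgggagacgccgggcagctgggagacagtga
NPPB: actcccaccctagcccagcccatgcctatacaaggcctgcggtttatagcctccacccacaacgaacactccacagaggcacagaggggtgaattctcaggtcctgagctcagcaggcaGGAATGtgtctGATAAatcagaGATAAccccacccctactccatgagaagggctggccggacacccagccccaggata

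Motifs were searched in the 250 bases before the start on both strands, except the TATA box TATAAA, searched on the strand of the gene. They were chosen with the sequences in view, and a match is a description of letters only. NPPA held TATAAA from -39 to -34, which 8.06% of the 33469 promoters in the table hold. The sequence also contained GATAA, the core bound by GATA factors, from -131 to -127, and CAAGTG, a core bound by Nkx2-5, from -96 to -91 (23.5% and 11.7% of promoters). NPPB held GATAA at 3 places, -120 to -116, -109 to -105 and -57 to -53, the last running past the stretch shown. It also held GGAATG from -131 to -126, the reverse complement of CATTCC, the M-CAT motif of TEAD factors (12.1% of promoters). None of these matches overlapped another. TGANTCA, the AP-1 motif, and CCWWWWWWGG (W is A or T), the CArG box of serum response factor, had no exact match in either window. They were held by 6.34% and 1.5% of promoters. Forms with a mismatch were not searched.

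The genes around the pair lay closer to the other libraries in DMSO replicate 1. Taking the 5 protein-coding genes on each side in RefSeq order, 7 were at 1 CPM or more in every library, and the gap of that library to the average of the other 5 ran from -0.40 to 0.36 log2 units. Plod1, a collagen-modifying enzyme gene, was at the lower end and Mfn2, a mitochondrial fusion gene, at the upper. Clcn6, the neighbour of NPPA, was at 43 to 45.4 CPM in all 6 libraries. For NPPB the difference was -0.92 and for NPPA -2.84. Over all genes tested, 83 (0.546%) lay at least 2 log2 units below every other library in DMSO replicate 1, and NPPA, at -2.39 from the next lowest, was one of them.

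**Figure D2:**
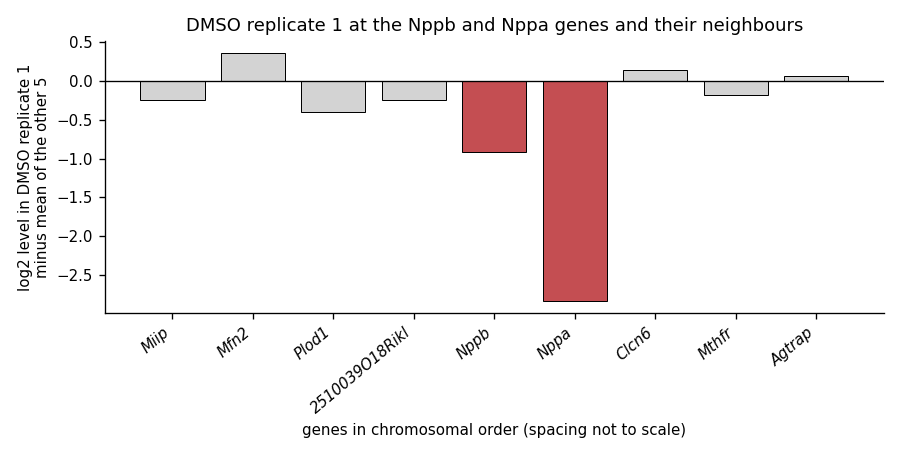
Log2 level in DMSO replicate 1 minus the mean of the other 5 libraries (vertical axis) for NPPB, NPPA (red) and the neighbouring genes at 1 CPM or more (grey), in chromosomal order. NPPA stands at -2.84 and NPPB at -0.92, while the neighbours lie between -0.40 and 0.36.

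Ribosomal protein genes, a fixed list of 30 of which 28 were in the table under these names, ran in nearly the same order over the libraries as NPPA. Their mean log2 level relative to the mean of the 5 libraries other than DMSO replicate 1 was -0.75 in DMSO replicate 1, -0.24 in blebbistatin replicate 2 and -0.18 in DMSO replicate 2. It was -0.038 in blebbistatin replicate 3, 0.22 in blebbistatin replicate 1 and 0.23 in DMSO replicate 3. All 28 were lowest in DMSO replicate 1, where 34.4% of all genes tested were lowest. The 2 with the lowest p were Rps12 and Rpl18, with log2 fold changes of 0.54 ± 0.37 and 0.30 ± 0.23, or 0.19 and 0.049 without DMSO replicate 1. Over the list, 28 of 28 values were positive (median 0.21) with all libraries, and 8 of 28 (median -0.041) without that library. On the same scale NPPA was at -2.84, -0.45, -0.43, 0.016, 0.45 and 0.41 in these libraries. NPPB was at -0.92, -0.37, 0.071, -0.23, 0.073 and 0.46. The lists of other cell types are given with these values because DMSO replicate 1 also stood apart in some of them: 9 cardiomyocyte markers differed there by 0.14 on average, 10 fibroblast markers by -0.048, 7 endothelial markers by 0.081 and 7 macrophage and leukocyte markers by -0.87. The gap was 0.56 for 6 smooth muscle and pericyte markers, 1.26 for 3 red blood cell markers, -0.35 for 4 epicardial markers and -0.66 for 3 Schwann and neuronal markers. The part of these cell types in the NPPA and NPPB values was not tested. The summed level of the 8 macrophage and leukocyte markers was 75.2 CPM in that library, 136 and 160 CPM in DMSO replicates 2 and 3, and 142 to 162 CPM with blebbistatin, with Cd163 at 0 to 0.259 CPM.

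**Figure D3:**
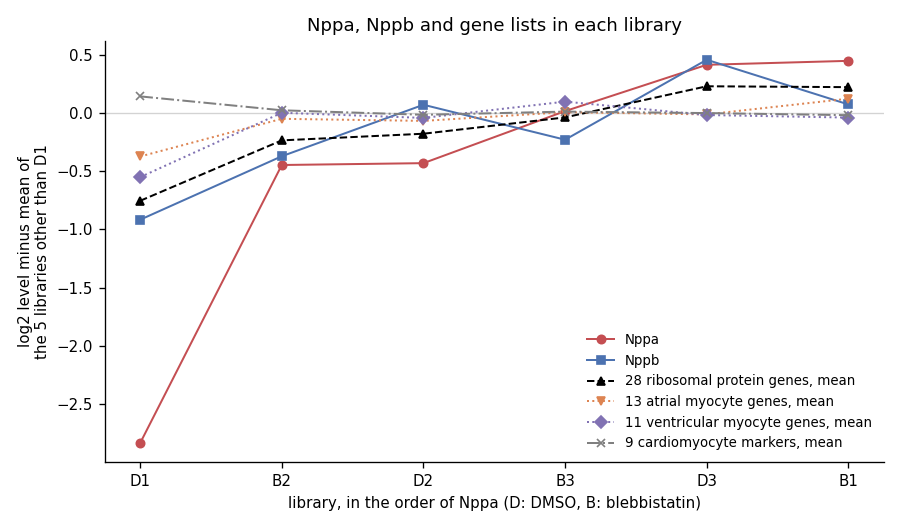
Log2 level of NPPA and NPPB and mean log2 level of 4 gene lists, each relative to its mean over the 5 libraries other than DMSO replicate 1 (vertical axis), with libraries in the order of NPPA. The ribosomal protein genes climb along this order from -0.75 in DMSO replicate 1 to 0.23 in DMSO replicate 3, and NPPB steps down at blebbistatin replicates 3 and 1.

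When the mean of the ribosomal list was put into the limma fit as a covariate, a step chosen after seeing the data, NPPA had a log2 fold change of 0.28 ± 0.27 (adjusted p = 0.9998). NPPB had one of -0.34 ± 0.083, a level 0.791-fold that with DMSO (95% interval 0.698 to 0.898). Its unadjusted p was 0.00173 and its limma adjusted p was 0.555, so it did not pass. In this fit 0.138% of all genes passed the adjusted threshold and 3.51% had an unadjusted p under 0.05, 1.97% on the lower side. Whether the list and the 2 peptide genes moved for a common reason was not tested.

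**Figure D4:**
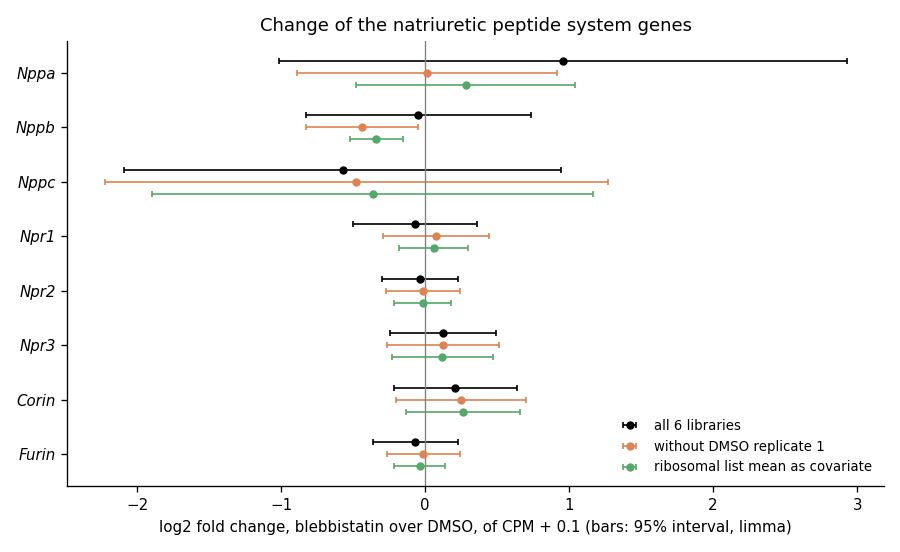
Log2 fold change of each member (horizontal axis, blebbistatin over DMSO) with its 95% interval from limma, for all 6 libraries (black), without DMSO replicate 1 (orange) and with the ribosomal list as a covariate (green). NPPA goes from 0.96 to 0.014 without that library and NPPB from -0.046 to -0.44, while the receptors and enzymes stay within -0.068 to 0.26.

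By the smallest Euclidean distance between centred log2 profiles over the 6 libraries, taken over genes with a mean log2 level of at least 1, the genes most like NPPA were Tmsb15b2 (distance 0.251 log2 units), Tpi1 (0.423), Smim26 (0.498), Bik (0.519) and Zc3h8 (0.523). Tpi1, a glycolytic enzyme gene, had 17.1 CPM in the first DMSO library against 99.9 to 159 CPM elsewhere. The genes most like NPPB were Ccl2 (0.13), Ppp1r15a (0.16), Sat1 (0.182), Timm17b (0.249) and Med21 (0.251). Ccl2, a monocyte chemokine gene, was at 72.4, 145.6 and 195.8 CPM with DMSO and at 141.9, 103.5 and 116.8 CPM with blebbistatin. No gene was in both sets. Both sets were picked by these same values, so profiles like those of NPPA and NPPB, low in DMSO replicate 1, follow from the choice. NPPB ranked 857 among the 12205 genes compared in its likeness to NPPA. The distance also counts gap size, which in DMSO replicate 1 was -2.84 log2 units for NPPA and -0.92 for NPPB.

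NPPC, the gene of C-type natriuretic peptide, was near the limit of detection. It had 13, 17 and 6 reads in DMSO replicates 1, 2 and 3, and 0, 5 and 20 reads in blebbistatin replicates 1, 2 and 3. The lowest and the highest library were both treated, and the groups overlapped throughout. A count of 0 in blebbistatin replicate 1 allows up to 3.69 reads (upper end of the exact Poisson 95% interval, counting error only). The log2 fold change was -0.57 ± 0.65 (limma adjusted p = 0.991, 95% interval -2.09 to 0.94), and the added 0.1 CPM understates any change at this level. It was -0.087 without blebbistatin replicate 1 and -1.12 without blebbistatin replicate 3. NPPC entered the test because 3 libraries, from both groups, reached the minimum of 10 reads at the median depth.

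The receptor genes varied far less. NPR1, the guanylyl cyclase receptor of the atrial and brain peptides, was at 22.1, 19.7 and 16.4 CPM with DMSO and at 16.9, 20.5 and 19.3 CPM with blebbistatin. Its highest value was in DMSO replicate 1 and its lowest in DMSO replicate 3. After scaling, DMSO replicate 1 was the highest library for 3 of the 8 members and for 33.7% of all genes tested. The groups overlapped, with a log2 fold change of -0.068 ± 0.18 (95% interval -0.50 to 0.36). This value took the opposite sign without DMSO replicate 1 (0.075 ± 0.16).

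NPR2, the receptor of the C-type peptide, was at 40.7, 43.7 and 41 CPM with DMSO and at 41.9, 40.3 and 43.4 CPM with blebbistatin. Its highest library was only 1.09-fold above its lowest. The log2 fold change was -0.038 ± 0.11 with a 95% interval of 0.811-fold to 1.17-fold, and it was 0.0012 on CPM without scaling between libraries.

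NPR3, the clearance receptor, was at 5.67, 6.14 and 6.4 CPM with DMSO and at 6.82, 6.67 and 6.92 CPM with blebbistatin. All 3 treated libraries lay above all 3 controls, but by a small margin. The means were 6.14 ± 0.11 and 6.71 ± 0.088 CPM, a log2 fold change of 0.13 ± 0.16 (limma unadjusted p = 0.446, adjusted p = 0.991). The nearest 2 libraries held 395 and 422 reads, whose exact Poisson 95% intervals (357 to 436 and 383 to 464 reads) overlapped. NPR3 is also expressed in the endocardium and in fibroblasts. The summed level of the 7 endothelial markers in the table was 104 to 116 CPM with DMSO and 97.9 to 107 CPM with blebbistatin, and that of the 10 fibroblast markers 40491 to 46984 and 40232 to 45394 CPM. Their part in the NPR3 values was not tested.

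CORIN, the membrane protease that cuts the atrial peptide's precursor in cardiomyocytes, was at 4.89, 5.53 and 4.39 CPM with DMSO and at 5.97, 6.07 and 5.56 CPM with blebbistatin. The groups did not overlap, although blebbistatin replicate 3 and DMSO replicate 2 nearly met, at 343 and 330 reads. The log2 fold change was 0.21 ± 0.18 (limma unadjusted p = 0.287, adjusted p = 0.991), 0.25 ± 0.20 without DMSO replicate 1 and 0.11 without DMSO replicate 3. NPR3 and CORIN were thus 2 of 8 members with all treated libraries above all controls, where this held for 3.23% of all genes tested (6.19% in either direction). No member had all treated libraries below all controls (2.96% of all genes).

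FURIN, the protease of the secretory pathway that cuts the brain and C-type precursors among many others, was at 253.8, 253.1 and 242.3 CPM with DMSO. With blebbistatin it was at 246.8, 225.6 and 263.8 CPM. As deposited, both the lowest and the highest library were treated, while after scaling the highest was DMSO replicate 1. The log2 fold change was -0.067 ± 0.13, with a 95% interval of 0.779-fold to 1.17-fold.

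In the cGMP pathway 20 of 25 listed genes were tested. Limma called none of them and none had an unadjusted p under 0.05. 8 had a positive and 12 a negative log2 fold change (median -0.082), against 50.6% positive over all genes. Without DMSO replicate 1, 13 were positive and 7 negative (median 0.045), against 49.6% positive. The 2 with the lowest p were Trpc6, a cation channel gene that cGMP signalling restrains, and Nos2, the inducible nitric oxide synthase. Trpc6 was at 44.7, 37.8 and 34.4 CPM with DMSO and at 29.3, 33.1 and 30.5 CPM with blebbistatin. Its groups did not overlap, with all treated libraries lower, as for 2.96% of all genes. Its log2 fold change was -0.36 ± 0.16 (limma unadjusted p = 0.0602, adjusted p = 0.991), and -0.22 without DMSO replicate 1, its highest library. Nos2 had at most 53 reads in a library and was listed at 0 in 1, with a log2 fold change of -1.36 ± 0.64 (limma unadjusted p = 0.0675). It was -0.74 without blebbistatin replicate 3, the library at 0, and -0.62 with a pseudocount of 0.5 CPM. The soluble guanylyl cyclase genes Gucy1a1 and Gucy1b1 had log2 fold changes of 0.022 ± 0.13 and 0.052 ± 0.13. The cGMP phosphodiesterase genes Pde2a and Pde5a had ones of -0.072 ± 0.15 and -0.092 ± 0.22.

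Among other genes of peptide processing, storage and clearance, 13 of 21 were tested and limma called none. Positive values numbered 2 and negative ones 11 (median -0.072), against 50.6% positive over all genes. Without DMSO replicate 1 they numbered 6 and 7 (median -0.046), against 49.6% positive. Dpp4, a peptidase gene, was the only member of the list with an unadjusted p under 0.05, against 0.783% of all genes on the lower side. Its limma log2 fold change was -1.06 ± 0.45 (unadjusted p = 0.0488, adjusted p = 0.991). It held 72, 26 and 41 reads with DMSO and 14, 20 and 22 with blebbistatin, and without DMSO replicate 1, its highest library, its log2 fold change was -0.69. With a pseudocount of 0.5 CPM it was -0.64. Mme, which encodes the peptide-degrading enzyme neprilysin, had a log2 fold change of -0.072 ± 0.20. Pcsk6, whose protease activates corin, was at 74.2 to 77.8 CPM in all libraries (-0.018 ± 0.11). Pam, an amidating enzyme of atrial granules, had a log2 fold change of -0.017 ± 0.14. The endocrine granule gene Chga and the cardiac peptide gene Ostn, whose product binds the clearance receptor, were listed at 0 in all 6 libraries.

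Of 26 transcription factor genes described at the NPPA or NPPB promoter, all were tested and limma called none. Positive values numbered 10 and negative ones 16 (median -0.039), against 50.6% positive over all genes. Without DMSO replicate 1 they numbered 16 and 10 (median 0.034), against 49.6% positive. Jun, an AP-1 subunit gene, was the only one of the 26 with an unadjusted p under 0.05, against 1.52% of all genes (0.783% on the lower side). It was at 121, 137 and 136 CPM with DMSO and at 78.2, 92.6 and 100.7 CPM with blebbistatin, so all treated libraries lay below all controls, as for 2.96% of all genes. Its log2 fold change was -0.58 ± 0.14 (unadjusted p = 0.00318, limma adjusted p = 0.991) and -0.60 without DMSO replicate 1. The cardiac factor genes Gata4 and Nkx2-5 had log2 fold changes of 0.099 ± 0.14 and 0.32 ± 0.21, the latter 0.15 without DMSO replicate 1. Rest, a repressor of both peptide genes, had one of -0.28 ± 0.18, or -0.088 without that library, and Srf, the CArG box factor, one of -0.18 ± 0.12.

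Genes that mark the heart's chambers were compared because NPPA is an atrial gene after birth. Of 13 tested atrial genes, 7 had a positive and 6 a negative log2 fold change (median 0.034), and of 11 ventricular genes 9 and 2 (median 0.27, or 0.13 without DMSO replicate 1), against 50.6% positive over all genes. Limma called none of either list. Nr2f1, an atrial transcription factor gene, had a log2 fold change of 0.73 ± 0.25 (unadjusted p = 0.02, limma adjusted p = 0.991), and 0.47 without DMSO replicate 1. Irx4, a ventricular transcription factor gene, had one of 0.36 ± 0.14 (unadjusted p = 0.0329, limma adjusted p = 0.991), and 0.30 without that library. In DMSO replicate 1 the atrial light chain gene Myl4 was at -2.00 log2 units relative to the average of the other 5, and the ventricular light chain genes Myl2 and Myl3 at -1.33 and -1.12. The atrial genes were not low as a group there: 5 of the 13 tested were lowest and 5 highest in that library, with the atrial light chain gene Myl7 at -0.45, the growth factor gene Bmp10 at 0.79, the potassium channel genes Kcnj3 and Kcnj5 at 0.52 and 0.38, and the gap junction gene Gja5 at 0.35. Of the 11 ventricular genes, 8 were lowest there. The cardiomyocyte genes Myh6 and Ryr2 differed the other way, by 0.58 and 0.99. Both belong to the 9 tested cardiomyocyte markers, which differed by 0.14 on average, with 3 lowest and 5 highest there.

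**Figure D5:**
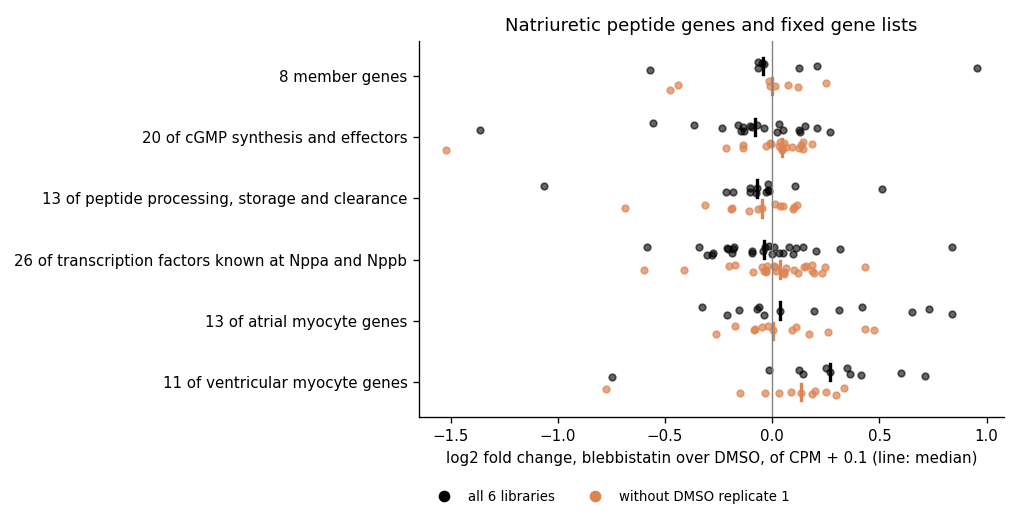
Log2 fold change (horizontal axis) of every tested gene in the 8-member set and in 5 fixed lists, with all 6 libraries (black) and without DMSO replicate 1 (orange); vertical strokes are medians. The medians lie between -0.082 and 0.27 with all libraries and between -0.046 and 0.13 without that library.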

How the data were processed

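The 3 DMSO and 3 blebbistatin RNA libraries were used. The other samples (6 H3K9me3, 6 input) are not analysed here. The authors deposited CPM, with a total of 1e+06 in every column. Per the submitters' processing notes, build rn6, Trim Galore, MACS2 2.1.0, BWA, edgeR 3.20.9, StringTie 1.3.4 and HISAT2 2.1.0 were named for RNA and chromatin together, without roles. Annotation and strand setting are not given in the sources used here, so genes that overlap or resemble another are uncertain.

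Of the values above 0 and under 2 CPM, 97.4 to 97.7% were whole multiples (within 0.02) of the step taken as 1 read. Whole reads were not recovered for all values, so no count test was run. CPM was divided by TMM factors (0.929 to 1.03, trims of 0.3 and 0.05, unweighted). Genes with at least 10 reads at the median depth (0.162 CPM) in at least 3 libraries, 15204 in all, entered limma 3.58.1 in R 4.3.3 (trend, robust, two-sided, no block) on log2(CPM + 0.1). Calls needed a Benjamini-Hochberg adjusted p under 0.05 over all genes. Means ± SD are of scaled CPM and single-library values are as deposited. Intervals of reads cover counting error only. The steps were tested on simulated data. No 2 libraries agreed within sampling noise (lowest chi-square per degree of freedom 35.8).

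The members and gene lists were chosen with earlier results of these data known. Text names the 8 members, list genes with an unadjusted p under 0.05 (otherwise the 2 with the lowest p), the 5 genes most like a member (1 is not reported here), and genes a result turns on. Other list genes named were chosen for their role after their values were seen. Table names were matched to RefSeq symbols (17134) or synonyms (1820) in assembly GRCr8, used for names and gene order. Alternatives covered scaling, filter, pseudocount, robust fitting, the replicate block, left-out libraries and, added after seeing the data, the ribosomal covariate and the lists without DMSO replicate 1.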

Additional observations from a re-analysis of the deposited data

How the results depend on the processing

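No member passed the threshold under any alternative run, and the limma adjusted p of the 8 members ran from 0.555 to 0.999998 over them. The planned edgeR test was not run, because whole reads could not be recovered for all genes. Over all genes 3 were called (1 higher, 2 lower), with 231 at an unadjusted p under 0.05. The 1 higher gene became 0 without a filter, with a pseudocount of 0.5 or 1 CPM and with the replicate block, and the ribosomal covariate gave 21 genes (6 higher, 15 lower). With 1 library left out at a time, 3 to 6 genes were called (6 without DMSO replicate 1 or 3), 0 to 4 higher and 2 to 3 lower. For members, NPR2 took the opposite sign on CPM as deposited (0.0012) and NPR1 with the ribosomal covariate (0.0605). Over the left-out libraries log2 fold changes ran from -0.44 to 0.25 for NPPB and from -0.21 to 0.075 for NPR1, which changed sign, and from 0.014 to 1.64 for NPPA, whose extremes came on leaving out DMSO replicates 1 and 3. The other members kept their sign there. NPPC ran from -1.12 to -0.087. The endothelial marker median moved from -0.21 to 0.0089 without DMSO replicate 1 and to 0.068 with the covariate, and the red blood cell median from -0.53 to -0.045 without that library. The cause of these differences was not tested. With the replicate block NPPA and NPPB had adjusted p of 0.999 each. Libraries sharing a replicate number had correlated deviations of -0.29, 0.054 and -0.092, and the block changed no call of a member. Depth limits NPPC, at 0 to 20 reads, more than any other member.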

Other observations

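The genes below lay closest to the receptor and enzyme genes over the 6 libraries. They were picked from 12205 genes by these same values, so small distances and similar fold changes follow from the choice. The genes nearest to NPR1 were Npepps, Mgrn1, Abce1, Ripor1 and Stom (distances 0.0479 to 0.072 log2 units). Npepps, an aminopeptidase gene, had 229 CPM in the first DMSO library, where NPR1 was also highest, against 168 to 211 CPM elsewhere. Those nearest to NPR2 were Ganab, Limk2, Mmp14, Rab5b and Slc25a1 (0.0299 to 0.0642). Among those nearest to NPR3 were Dolk, Psmd3, Cdh3 and Rack1 (0.0409 to 0.076). For FURIN they were Lasp1, Cotl1, Ppp1r9b, Mre11 and Scrn1 (0.039 to 0.0733). For CORIN they were Ccdc14, Ift70b, MGC95208, Fam217b and Arhgap19 (0.131 to 0.147).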
